A study of Mus musculus with 48 samples.

Results

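The 10 genes described here, grouped as brakes on signalling from the T cell receptor, are Cbl, Cblb, Ptpn2, Ptpn6, Ptpn22, Dgka, Dgkz, Rasa2, Tnfaip3 and Rgs1. Of these, Rgs1 acts on signals from other receptors. Their chromatin was followed by ATAC-seq, an assay that cuts and tags open DNA with the Tn5 transposase, so that a peak of reads marks an accessible site. A peak belonged to a gene when it overlapped that gene's protein-coding body, and where several bodies overlapped it, the body with the boundary nearest the peak's middle was taken. A peak outside every gene body went to the nearest one within 100 kb. Position alone decided membership, and 132 of the 53868 peaks belonged to the 10 genes. Nearness does not show that a peak acts on the gene it was given to.

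When the T cell receptor meets its peptide, the kinases Lck and Zap70 phosphorylate adaptor proteins, and the signal divides into a calcium branch ending in NFAT, a diacylglycerol and Ras branch ending in AP-1, and a protein kinase C branch ending in NF-kB. Most genes of the set act against a step of this chain, and Rgs1 acts on signals from other receptors. Cbl and Cblb are E3 ubiquitin ligases that mark receptor-proximal proteins for removal, Ptpn2, Ptpn6 and Ptpn22 are tyrosine phosphatases that take phosphate off the early kinases and their targets, and Dgka and Dgkz are kinases that use up diacylglycerol. Rasa2 switches Ras off by speeding its GTP hydrolysis, Tnfaip3 (A20) edits ubiquitin chains and limits NF-kB, and Rgs1 speeds GTP hydrolysis by G protein subunits below chemokine receptors. In tumours, persistent antigen drives CD8 T cells from a progenitor state into terminal exhaustion, and several of these genes are known to restrain T cells there.

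The cells were Cas9-expressing CD45.1 OT-1 CD8 T cells, whose receptor recognises an ovalbumin peptide, and all of them carried a lentiviral guide RNA with an ametrine reporter. They were transferred to young or aged mice a day before inoculation of B16-OVA, a melanoma line that makes ovalbumin, and were sorted from the tumours on day 15. Guides are named as in the labels: OTC (the control, used here only as a name), Zfp219 and Dusp5, the latter pair labelled as knockouts. The sorts were gated on Slamf6 and Tim-3: Tprog was Slamf6+ Tim-3- and labelled progenitor exhausted, Ttran was positive for both, Tterm was Slamf6- Tim-3+, and Ttad was negative for both, and aged and young hosts carry the letters A and Y in the titles. The 48 libraries form 21 groups, with 24 libraries from each age: 4 sorts with each guide in aged hosts and 3 sorts, without Ttad, in young hosts. There were 15 groups of 2 libraries and 6 of 3, the latter being young Ttran and young Tterm. The hosts' exact ages are not given in the sources used here, and each library is a pool of cells from independent mice. The p-values therefore measure only the spread between these pools, part of which may be technical. Whether sorts of a guide share mice is not given in the labels, and the tests treated all libraries as independent.

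Promoter sequence is shown for the genes whose start sites carry or frame the results below: Tnfaip3, which had a peak over each of its pair of annotated starts, and Ptpn22 and Cblb, whose start peaks are compared with peaks deeper in the gene. Each run is the 250 bases before a RefSeq start (GRCm38.p6), 5′ to 3′ on the gene's strand, with capitals where a searched motif matched. The window searched also held the first 50 bases of the transcript, on both strands, for AP-1 (TGANTCA), NF-kB (by name), NFAT (TGGAAA), RUNX (TGTGGT), ETS (CCGGAAG) and a GC box (GGGCGG).
Tnfaip3, outer start (chr10:19015411-19015660, minus strand): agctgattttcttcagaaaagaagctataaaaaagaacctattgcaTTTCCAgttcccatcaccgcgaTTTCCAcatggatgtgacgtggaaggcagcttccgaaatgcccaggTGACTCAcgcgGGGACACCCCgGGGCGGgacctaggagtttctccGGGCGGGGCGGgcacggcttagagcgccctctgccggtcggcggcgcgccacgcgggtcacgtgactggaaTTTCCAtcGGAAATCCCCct
Tnfaip3, inner start (chr10:19011964-19012213, minus strand): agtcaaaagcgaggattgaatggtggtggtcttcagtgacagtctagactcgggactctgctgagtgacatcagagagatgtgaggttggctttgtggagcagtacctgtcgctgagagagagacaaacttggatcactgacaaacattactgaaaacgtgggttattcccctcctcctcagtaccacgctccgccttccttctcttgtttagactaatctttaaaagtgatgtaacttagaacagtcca
Ptpn22 (chr3:103860027-103860276, plus strand): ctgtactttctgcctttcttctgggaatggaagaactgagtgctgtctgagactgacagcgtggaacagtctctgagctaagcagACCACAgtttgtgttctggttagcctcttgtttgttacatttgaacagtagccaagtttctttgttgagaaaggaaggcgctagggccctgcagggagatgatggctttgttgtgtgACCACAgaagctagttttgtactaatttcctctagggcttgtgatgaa
Cblb (chr16:52031299-52031548, plus strand): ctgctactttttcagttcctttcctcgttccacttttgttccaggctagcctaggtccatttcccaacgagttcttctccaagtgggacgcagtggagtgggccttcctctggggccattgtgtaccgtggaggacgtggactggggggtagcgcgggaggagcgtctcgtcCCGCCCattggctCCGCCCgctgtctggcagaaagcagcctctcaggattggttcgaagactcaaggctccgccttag
The outer Tnfaip3 run held an AP-1 match at position -136, NF-kB matches at -125 and -12, NFAT matches at -204, -182 and -20, and GC boxes at -114, -91 and -86, counted from the start. At the inner Tnfaip3 start none of the 6 motifs matched. The printed Ptpn22 run held RUNX matches at -165 and -48, and that of Cblb GC boxes at -78 and -65. Past the start, the searched window held a further RUNX match at 9 in Ptpn22 and a GC box at 3 in Cblb. At the other RefSeq start of Ptpn22, 103859795, which is not printed, none of the 6 motifs matched. Among all 32851 promoters of the table, 7.81% held an AP-1 match, 8.46% NF-kB, 21.4% NFAT, 16.8% RUNX, 8.86% ETS and 35.7% a GC box. A match is a run of letters and does not show a bound factor. The table held promoters for 8 of the 10 genes, all but Ptpn2 and Rgs1.

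Reads in peaks ran from 5638413 to 29942755 per library with a median of 14691505, reaching at most 16159054 in aged libraries. T cell markers had peaks in 6 of 6 genes. Between replicates, a chi-square of read counts divided by its degrees of freedom came to 2.79 to 4.53 in 33 pairs, above counting noise. The strongest Zfp219 peak had a median of 537 in aged Zfp219 against 504 in aged OTC libraries. The strongest Dusp5 peak had 1353 in aged Dusp5, 1352 in aged Zfp219 and 1666 in aged OTC libraries, and 1264 in young Dusp5 against 1324 in young OTC libraries. Accessibility does not check an edit made by a guide, so these values neither bear out nor contradict the labels. Because the samples are bulk sorts, a shift in the share of open cells and a shift in openness per cell cannot be told apart.

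Peaks were spread unevenly over the genes. Cblb, whose body spans 176.8 kb, had 32 peaks, and Tnfaip3, at 14.5 kb, had 31, of which 25 lay outside the body. Rgs1 had 21 peaks with 20 outside its 4.436 kb body, followed by Rasa2 with 10, Ptpn2 with 9, Ptpn22 with 8, Cbl and Dgkz with 7 each, Dgka with 4 and Ptpn6 with 3. In all, 77 lay in a body and 55 outside. Their median width was 938.5 bp, against 899 bp over all peaks, and their median normalized signal 149.7 against 93.9. At least 10 reads in every library were present in 108 of them, and 3 had a library with no read. Of the 132 peaks, 106 (80.3%) differed among the 21 groups (limma's F test, adjusted p under 0.05), against 75.9% of all peaks, so differing at all was common everywhere.

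Summed over its peaks, Tnfaip3 had the highest signal of the set, from 8211 ± 102 (SD, n = 3) in young Zfp219 Tterm to 11435 ± 345 (SD, n = 2) in aged OTC Ttran, a sum that depends on the number and width of its peaks. Cblb ran from 7091 ± 231 in aged Dusp5 Ttad to 8757 ± 78.3 in young Zfp219 Tprog (SD, n = 2 each). Rgs1 had its lowest sum in young OTC Tprog, 3959.9 ± 126, and its highest in aged OTC Tterm, 6217 ± 188 (SD, n = 2 each). Both ends of the Rgs1 range therefore fell in OTC cells, and they differed in sort and in host age together. Ptpn22 ran from 3331 ± 2.46 (SD, n = 2) to 4805 ± 145 (SD, n = 3). Its lowest group was aged Dusp5 Ttad and its highest young Zfp219 Ttran. For Ptpn2 the lowest sum was 1723 ± 32.9 in aged OTC Tterm (SD, n = 2) and the highest 2361 ± 85.1 in young Zfp219 Tterm (SD, n = 3). Rasa2 ran from 1988 ± 86.2 in young Zfp219 Tprog to 2663 ± 121 in aged OTC Ttran, and Cbl from 995 ± 79.4 in young Dusp5 Tprog to 1339.6 ± 133 in aged OTC Ttad (SD, n = 2 each). The diacylglycerol kinases shared their extremes: both Dgka (623 ± 2.78 to 869 ± 34.0) and Dgkz (2750.2 ± 122 to 3370.4 ± 17.9) were lowest in aged Dusp5 Tterm and highest in young OTC Tprog (SD, n = 2 each). Ptpn6 moved least in proportion, from 1761 ± 137 to 2141 ± 1.66 (SD, n = 2 each). These sums are descriptions and were not tested.

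Most peaks over a RefSeq start were strong. There were 11 of them, in the 8 genes of the promoter table, from the Ptpn6 start at chr6:124738579-124738926 (mean signal 123) and a Dgka start at chr10:128743483-128744066 (163), the weakest, up to the outer Tnfaip3 start at chr10:19014321-19015870 (mean signal 1262), the Cblb start at chr16:52031051-52032256 (1218) and the Dgkz start at chr2:91961877-91964889 (1196). The largest log2 difference of a start peak between Tprog and Tterm was 0.39 in aged and 0.49 in young OTC cells, against 1.75 and 1.77 among the other 91 peaks of those genes. Between ages the largest was 0.20 against 2.00. Most start peaks were stronger than the median of the set, and the part of signal level in this contrast was not tested. A largest value among 91 peaks also tends to exceed that among 11, so these values cannot show that starts moved less.

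The 100 kb limit cut through the flanks of Tnfaip3 and Rgs1. Just inside lay a Tnfaip3 peak at chr10:19104269-19105578, 88.9 kb away with a mean signal of 822, and an Rgs1 peak at chr1:144337534-144337794, 88.4 kb away with 17.5. Just outside lay 1 at 106 kb from Rgs1 (mean 717), 1 at 107 kb from Tnfaip3 (61.7) and 1 at 111 kb from Cblb (43.7).

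The first comparison set progenitor (Tprog) against terminally exhausted cells (Tterm) within each age and guide. In OTC cells, Rgs1 was less open in Tprog at 9 of its 21 peaks in aged and again 9 in young hosts, while Cblb and Tnfaip3 had peaks that moved in both directions. A group of Cblb peaks 98.1 to 115.7 kb into the gene, and the inner start of Tnfaip3, were more open in Tprog. Among the 132 peaks, 9 rose and 24 fell in aged Tprog against Tterm (limma, adjusted p under 0.05, 25%, background 20.1% of all peaks, 8.88% higher and 11.2% lower). In young hosts 16 rose and 21 fell (28%, background 26.5% of all peaks, 13.9% higher and 12.6% lower). The share called was near the background in young cells, and in aged cells 18.2% of the set fell against 11.2% of all peaks. The aged count of 33 was lower without any 1 of the compared libraries. Each such fit left 1 library in a group, so the drop singles out no library. A single call is said below to be lost where another processing choice, or 1 library left out, took its adjusted p to 0.05 or more.

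Cblb, the ligase that makes T cells depend on co-stimulation, had the clearest progenitor peak of the set at chr16:52146664-52147909, 115.7 kb into the gene. Its signal in aged OTC cells was 477 and 449 in the Tprog libraries, 241 and 314 in Ttran, 207 and 223 in Tterm and 270.0 and 318 in Ttad. Young OTC cells had 703 and 770.0 in Tprog, 341, 346 and 425 in Ttran and 313, 224 and 299 in Tterm. Every Tprog library of either age was above every Tterm library. The difference was 1.10 ± 0.15 (log2, SE; adjusted p = 5.5e-09) in aged and 1.41 ± 0.14 (adjusted p = 8.7e-15) in young cells, and it was called again with the Zfp219 and Dusp5 guides, at 1.31 to 1.70 in aged and 1.29 to 1.70 in young hosts. In Zfp219 cells the aged Tprog libraries had 611 and 620.3 against 259 and 237 in Tterm. In Dusp5 cells they had 577 and 614 against 189 and 177.

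A pair of neighbours moved the same way. At chr16:52129211-52130097, 98.1 kb into Cblb, aged OTC Tprog had 324 and 344 against 127 and 171 in Tterm (1.17 ± 0.17, adjusted p = 7.9e-08), and young Tprog had 384 and 388 against 278, 336 and 251 (0.43 ± 0.16, adjusted p = 0.035). The aged libraries of the pair of sorts did not overlap. At chr16:52142956-52143550, 111.7 kb in, the log2 difference was 0.93 ± 0.33 in aged and 1.77 ± 0.30 in young OTC cells. Other Cblb peaks went down: that at chr16:52036179-52036550, 4.8 kb into the gene, differed by -0.87 ± 0.23 (log2) in aged and -0.84 ± 0.21 in young cells, with signal of 101 and 97.6 against 154 and 215 in aged and 107 and 126 against 208, 237 and 185 in young hosts. The start peak of Cblb, whose upstream GC boxes are printed above, fell by 0.25 on the log2 scale in aged Tprog (SE 0.08, adjusted p = 0.021) and had -0.13 ± 0.07 in young cells (adjusted p = 0.22). So within 1 gene body called peaks moved in both directions, and the start was not tested against the interior. Cbl, its paralogue, had 0 called peaks in aged Tprog by limma (1 of 7 at an unadjusted p under 0.05, 1 lower by edgeR) and 2 lower ones in young Tprog. A Cbl peak inside the gene at chr9:44168343-44169552 had 105 and 101 in aged Tprog and 161 and 168 in Tterm, which missed the threshold (-0.67 ± 0.28, adjusted p = 0.081), and was called in young cells (-0.74 ± 0.26, adjusted p = 0.023). Cblb 52129211 lost its young Tprog-Tterm call without young OTC Tprog replicate 1 (adjusted p = 0.13), Tprog replicate 2 (0.15), Tterm replicate 1 (0.086) or Tterm replicate 3 (0.17). Cblb 52142956 lost its aged Tprog-Tterm call with quantile normalization (adjusted p = 0.054) and without aged OTC Tprog replicate 1 (adjusted p = 0.2), Tprog replicate 2 (0.078), Tterm replicate 1 (0.058) or Tterm replicate 2 (0.23). Cblb 52036179 lost its aged Tprog-Tterm call without aged OTC Tterm replicate 2 (adjusted p = 0.12). Cblb 52031051 lost its aged Tprog-Tterm call with quantile normalization (adjusted p = 0.42) and without aged OTC Tprog replicate 1 (adjusted p = 0.23), Tterm replicate 1 (0.15) or Tterm replicate 2 (0.055). Cbl 44168343 lost its young Tprog-Tterm call without young OTC Tprog replicate 2 (adjusted p = 0.42), Tterm replicate 2 (0.05) or Tterm replicate 3 (0.059).

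Among the phosphatases, Ptpn22 was less open in Tprog at 2 of 8 peaks in each age, the same pair both times. Its peak at chr3:103907317-103909129, 47.9 kb into the gene, had 597 and 660.1 in aged OTC Tprog and 889 and 926 in Tterm, and 628 and 651 against 904, 930.2 and 997 in young cells. No Tprog library reached a Tterm library. The differences were -0.53 ± 0.10 (adjusted p = 2.9e-05) and -0.56 ± 0.09 (adjusted p = 1.0e-06). The second peak, 12.5 kb in at chr3:103872548-103873079, differed by -0.89 ± 0.17 and -0.53 ± 0.15. The Ptpn22 start peak at chr3:103859387-103860764, over the printed promoter, had -0.05 ± 0.09 in aged (adjusted p = 0.78) and 0.04 ± 0.09 in young cells (adjusted p = 0.77), where the SE limits any shift of this peak to a small one. Ptpn2, which dephosphorylates Lck and the JAK kinases, had 1 peak higher and 1 lower in aged Tprog, 0.48 ± 0.18 at chr18:67687741-67689057 and -1.47 ± 0.43 at chr18:67706072-67706589, and 0 called by limma in young cells (3 of 9 at an unadjusted p under 0.05, 0 by edgeR), where the same peaks had -0.30 ± 0.16 and -0.17 ± 0.39. Ptpn6, or SHP-1, had 0 calls by limma in aged cells (1 of 3 at an unadjusted p under 0.05, 1 lower by edgeR) and 1 rise in young Tprog, 0.25 ± 0.09 at chr6:124729633-124733423 (adjusted p = 0.024), where the aged value was 0.04 ± 0.10. Ptpn22 103872548 lost its young Tprog-Tterm call without young OTC Tprog replicate 1 (adjusted p = 0.26) or Tterm replicate 3 (0.051). Ptpn2 67687741 lost its aged Tprog-Tterm call with the compared groups fitted alone (adjusted p = 0.066) and without aged OTC Tprog replicate 2 (adjusted p = 0.49), Tterm replicate 1 (0.3) or Tterm replicate 2 (0.052). Ptpn2 67706072 lost its aged Tprog-Tterm call without aged OTC Tprog replicate 2 (adjusted p = 0.057) or Tterm replicate 1 (0.12). Ptpn6 124729633 lost its young Tprog-Tterm call without young OTC Tprog replicate 2 (adjusted p = 0.23), Tterm replicate 1 (0.12) or Tterm replicate 3 (0.071).

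Dgkz and Dgka, which lower diacylglycerol, changed at 1 peak each at most in either age. Of the 2 Dgkz start peaks, that at chr2:91947501-91950932 fell in aged Tprog (-0.39 ± 0.09, adjusted p = 4.0e-04, young -0.14 ± 0.08). An inner Dgkz peak at chr2:91956772-91958166 rose in young Tprog (0.64 ± 0.11, adjusted p = 2.4e-06, aged 0.10 ± 0.12). Dgka rose at 1 of its 2 start peaks, chr10:128744329-128745703, in young Tprog: 657 and 621 against 462, 519.7 and 485 (0.39 ± 0.11, adjusted p = 0.0056). Aged cells had 499 and 528 against 459.8 and 466 there (0.15 ± 0.12). The other Dgka start peak, chr10:128743483-128744066, was not called among the groups (limma's F test, adjusted p = 0.41). For Rasa2, which lowers Ras-GTP, a peak 21.9 kb upstream of the gene at chr9:96653511-96653997 was lower in Tprog in both ages, -0.73 ± 0.23 (adjusted p = 0.013) and -0.62 ± 0.21 (adjusted p = 0.017). It had 108 and 121 in aged Tprog against 183 and 195 in Tterm, and 126 and 132 against 193, 189 and 217 in young cells. The Rasa2 start peak at chr9:96630466-96631935 fell in young Tprog, -0.31 ± 0.08 (adjusted p = 0.0026). Dgkz 91947501 lost its aged Tprog-Tterm call without aged OTC Tprog replicate 2 (adjusted p = 0.078). Dgka 128744329 lost its young Tprog-Tterm call without young OTC Tprog replicate 1 (adjusted p = 0.08). Rasa2 96653511 lost its aged Tprog-Tterm call without aged OTC Tprog replicate 1 (adjusted p = 0.12), Tterm replicate 1 (0.051) or Tterm replicate 2 (0.094). Rasa2 96653511 lost its young Tprog-Tterm call without young OTC Tprog replicate 1 (adjusted p = 0.11), Tprog replicate 2 (0.072) or Tterm replicate 3 (0.066).

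Tnfaip3, the NF-kB brake, had 5 peaks higher and 5 lower in aged Tprog, and 6 higher and 5 lower in young Tprog. Its inner and outer starts are given side by side. The inner start, at chr10:19011617-19012691, had 589.9 and 553 in aged Tprog against 413 and 482 in Tterm and 601 and 555 against 424, 390.0 and 420.1 in young cells. Each Tprog library lay above each Tterm library (0.36 ± 0.12, adjusted p = 0.03, and 0.49 ± 0.11, adjusted p = 4.1e-04). The outer start, at chr10:19014321-19015870, is the one with the AP-1, NF-kB and NFAT letters in the sequence above. It had 1364 and 1269 against 1455 and 1229.9 in aged cells (-0.02 ± 0.09, adjusted p = 0.89) and 1186 and 1108 against 1385, 1275 and 1321 in young cells (-0.21 ± 0.08, adjusted p = 0.036). The difference between the starts was not itself tested. Peaks at the far end of the gene also rose in Tprog: chr10:18999081-19000970 by 0.61 in aged and 0.58 in young cells, chr10:19001087-19002569 by 0.47 and 0.72, and chr10:18986999-18988558, 12.4 kb past the gene, by 0.46 and 0.83. Tnfaip3 19011617 lost its aged Tprog-Tterm call without aged OTC Tprog replicate 1 (adjusted p = 0.2), Tprog replicate 2 (0.066) or Tterm replicate 1 (0.34). Tnfaip3 19014321 lost its young Tprog-Tterm call without young OTC Tprog replicate 1 (adjusted p = 0.057), Tprog replicate 2 (0.29), Tterm replicate 1 (0.13) or Tterm replicate 3 (0.066). Tnfaip3 19001087 lost its aged Tprog-Tterm call without aged OTC Tprog replicate 1 (adjusted p = 0.25), Tprog replicate 2 (0.083), Tterm replicate 1 (0.32) or Tterm replicate 2 (0.051). Tnfaip3 18986999 lost its aged Tprog-Tterm call without aged OTC Tprog replicate 1 (adjusted p = 0.056), Tprog replicate 2 (0.21), Tterm replicate 1 (0.15) or Tterm replicate 2 (0.083).

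Farther past the end of Tnfaip3 the direction turned. At chr10:18948849-18949893, 51.0 kb from the gene body, aged Tprog had 283 and 326 and Tterm 549 and 526, and young cells had 266 and 311 and 414, 471 and 472 (-0.82 ± 0.13, adjusted p = 7.9e-07, and -0.65 ± 0.12, adjusted p = 1.3e-05). Its neighbour at chr10:18946710-18947497 differed by -0.85 ± 0.12 and -0.43 ± 0.11. A weak peak at chr10:18970267-18971461, 29.4 kb away with a mean signal of 65.5, fell in both ages, -1.75 ± 0.35 (adjusted p = 5.1e-05) and -1.32 ± 0.32 (adjusted p = 7.2e-04). At chr10:18941433-18941933 the fall was -1.62 ± 0.59 in aged and -1.36 ± 0.53 in young cells, but the mean signal was 29.3 and each call was lost when any 1 of the compared libraries was left out (adjusted p 0.078 to 0.22 over the 4 aged and 0.057 to 0.23 over the 5 young libraries). Upstream, chr10:19077889-19078519 rose in aged Tprog (1.37 ± 0.42), a call lost without aged OTC Tprog replicate 1 (adjusted p = 0.082), Tprog replicate 2 (0.055) or Tterm replicate 1 (0.44). The plot of Tprog against Tterm by position shows these turns of direction along the locus.

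**Figure D1:**
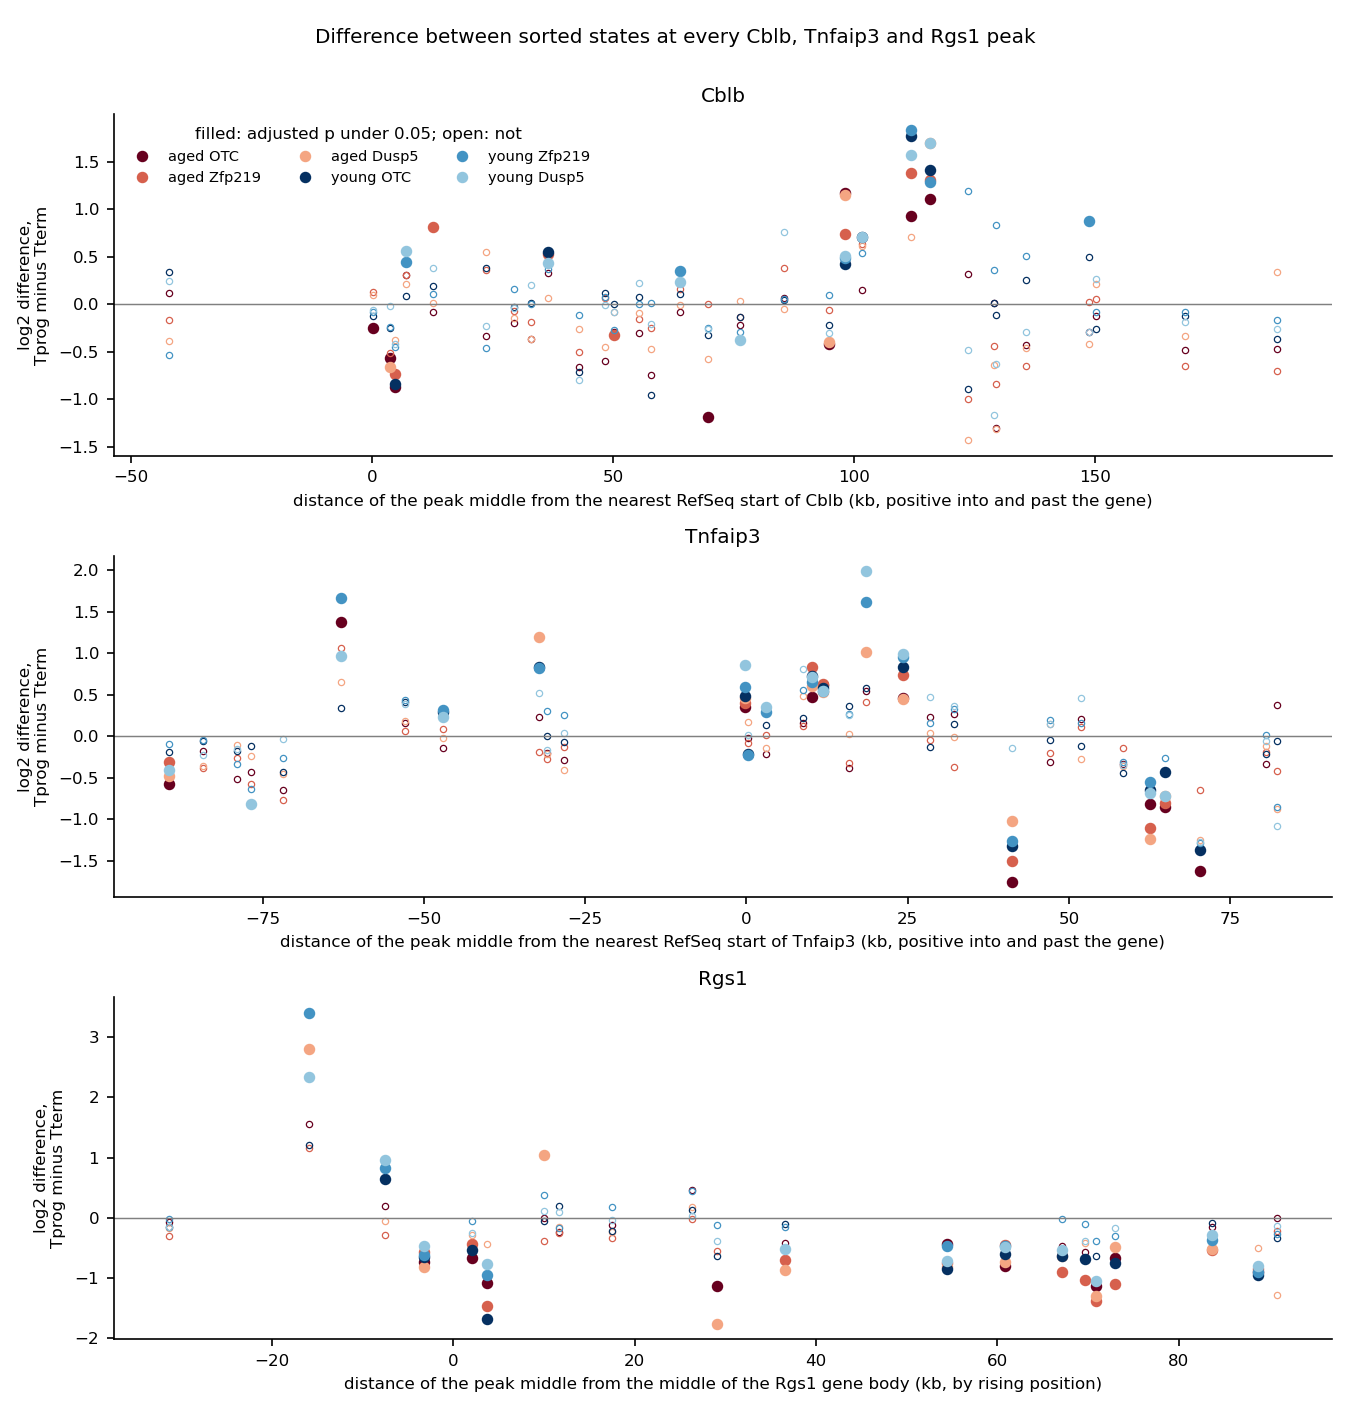
Difference in log2(normalized signal + 1) between Tprog and Tterm (vertical axis) for each Cblb, Tnfaip3 and Rgs1 peak against its distance in kb (horizontal axis: from the nearest RefSeq start, positive into and past the gene, for Cblb and Tnfaip3; from the middle of the gene body, by rising coordinate, for Rgs1). Each of the 6 sets of age and guide has its own marker, and filled markers have an adjusted p under 0.05; the Cblb points near 98.1 to 115.7 kb lie above 0, and most filled Rgs1 points lie below 0.

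Rgs1, which damps chemokine receptor signals, went mostly one way. Its strongest peak, at chr1:144306545-144308849 and 57.4 kb from the gene body, had 637 and 609.5 in aged OTC Tprog against 1142 and 1031 in Tterm. Young cells had 603 and 739 against 1018, 987 and 1025. Every Tterm library of either age exceeded every Tprog library (-0.80 ± 0.10, adjusted p = 1.6e-10, and -0.60 ± 0.09, adjusted p = 5.6e-08). The peak over the gene itself, chr1:144248218-144249712, differed by -0.66 ± 0.12 and -0.54 ± 0.11, and chr1:144243156-144244274, 0.4 kb from the body, by -0.73 ± 0.15 and -0.65 ± 0.14. The largest difference of the set at Rgs1 was at the narrow peak chr1:144250509-144250837, -1.08 in aged and -1.68 in young cells. An exception was chr1:144239027-144239744, which rose in young Tprog (0.64 ± 0.15, adjusted p = 7.6e-04, aged 0.20 ± 0.17). With the other guides, Rgs1 peaks that fell and rose in Tprog numbered 12 and 0 in aged Zfp219 (background 10.4% and 8.38% of all peaks), 9 and 2 in aged Dusp5 (background 12.6% and 10.3%), 6 and 2 in young Zfp219 (background 13.6% and 13.3%), and 9 and 2 in young Dusp5 cells (background 14.5% and 15.3%). Rgs1 144250509 lost its aged Tprog-Tterm call without aged OTC Tprog replicate 2 (adjusted p = 0.075).

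The contrast of Tprog and Tterm could be repeated in 6 sets that share no library, 3 guides in each of 2 ages. Called as higher in all 6 were 6 of the 132 peaks, against a background of 3.01% of all peaks: Cblb 52129211 (log2 0.43 to 1.17) and 52146664 (1.10 to 1.70), and Tnfaip3 18986999 (0.44 to 0.99), 18999081 (0.53 to 0.63), 19001087 (0.47 to 0.83) and the inner start 19011617 (0.36 to 0.86), each given by its first base. Called as lower in all 6 were 4, against 3.29%: Tnfaip3 18948849 (-1.23 to -0.55) and Rgs1 144243156 (-0.82 to -0.46), 144300609 (-0.85 to -0.43) and 144306545 (-0.80 to -0.46). These shares are near the background, so the peaks are described as repeatable and not as particular to the set. At the other end, 59 of the 132 peaks were called in none of the 6 sets. The plot of normalized signal per library shows 6 peaks over all 21 groups.

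**Figure D2:**
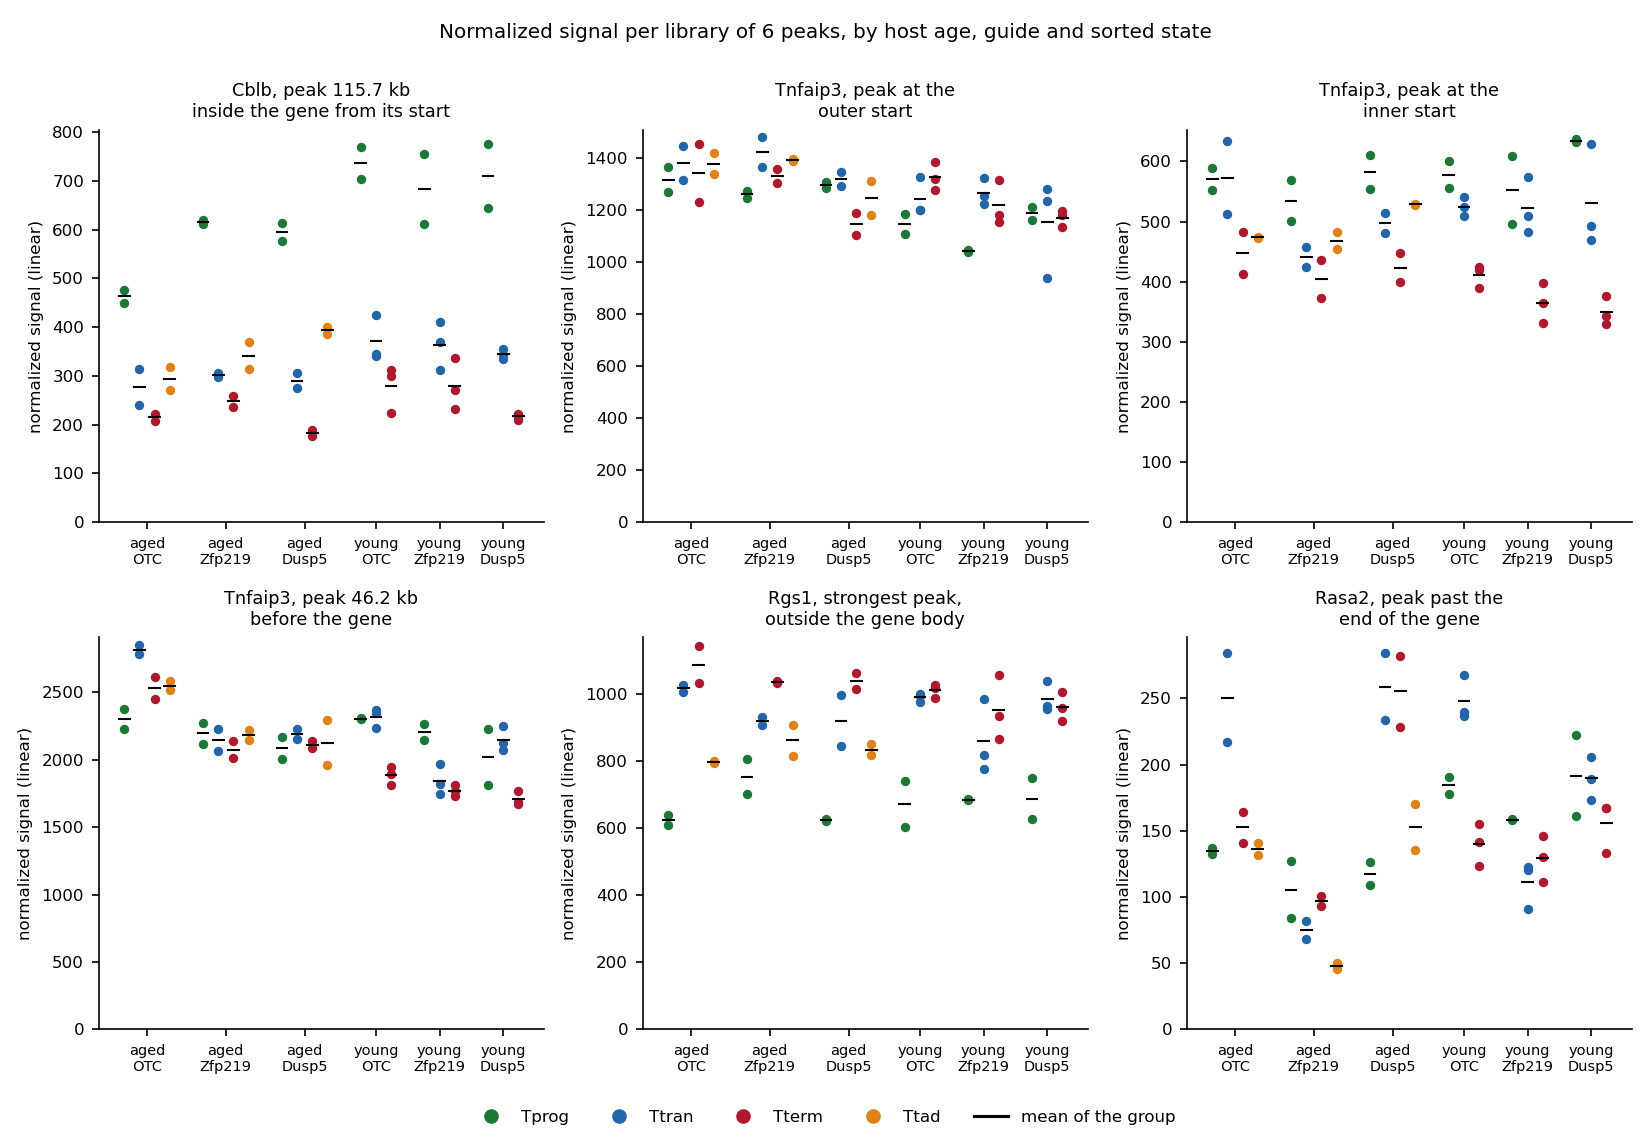
Normalized signal (linear vertical axis) in each of the 48 libraries for 6 peaks, with libraries ordered along the horizontal axis by host age, guide and sort; a point is a library and a black bar the group mean. The Cblb peak is high in Tprog of both ages (477 and 449 in aged OTC), the Rgs1 peak is low in Tprog (637 and 609.5 in aged OTC), the outer Tnfaip3 start overlaps between Tprog and Tterm in aged OTC cells, and the Rasa2 peak is lower in Zfp219 than in OTC Ttran of each age.

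Ttran cells, positive for both markers, had more calls against Tprog than against Tterm at these genes, as over all peaks. In aged OTC cells 23 peaks rose and 8 fell in Ttran against Tprog (23.5%, background 17% of all peaks, 9.99% higher and 6.98% lower), and 1 rose in Ttran against Tterm (0.758%, background 3.22% of all peaks, 1.87% higher and 1.35% lower). In young cells 15 rose and 8 fell against Tprog (17.4%, background 16.9% of all peaks, 9.07% higher and 7.82% lower), and 8 rose and 4 fell against Tterm (9.09%, background 8.38% of all peaks, 5.02% higher and 3.36% lower). The first share was above the background and the second below it, and both young shares were near it. Rgs1 had 6 peaks higher and 1 lower in aged and 8 higher in young Ttran against Tprog. At chr1:144306545-144308849 the aged Ttran libraries had 1026 and 1006 and the young ones 975, 999 and 993 (0.70 ± 0.10 and 0.57 ± 0.09 against Tprog). Ptpn22 rose in Ttran at the same 47.9 kb site, 0.34 ± 0.10 in aged and 0.66 ± 0.09 in young cells. Cblb 52146664 fell from Tprog to Ttran (-0.75 ± 0.15 and -0.99 ± 0.14), and in young cells it stayed above Tterm (0.42 ± 0.12, adjusted p = 0.018). The peak that rose in aged Ttran against Tterm was the Tnfaip3 peak at the end of the gene 18999081 (0.47 ± 0.12, adjusted p = 0.014), a call lost without aged OTC Tterm replicate 2 (adjusted p = 0.2), Ttran replicate 1 (0.069) or Ttran replicate 2 (0.067). Ptpn22 103907317 lost its aged Ttran-Tprog call with quantile normalization (adjusted p = 0.058) and without aged OTC Tprog replicate 1 (adjusted p = 0.18) or Ttran replicate 2 (0.21). Cblb 52146664 lost its young Ttran-Tterm call without young OTC Tterm replicate 2 (adjusted p = 0.29) or Ttran replicate 3 (0.18).

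Several of these counts moved with a left-out library, which cuts a group of 2 to 1 library. Any left-out library lowered them, aside from the aged count against Tterm, and the largest drops are given here. Without aged OTC Ttran replicate 2, the aged Ttran against Tprog count dropped from 31 to 20. Leaving out young OTC Tprog replicate 2 took the young count from 23 to 14, and leaving out young OTC Tterm replicate 2 took that against Tterm from 12 to 7. Against aged Tterm the single call became 0 without aged OTC Tterm replicate 2 (limma, 12 peaks at an unadjusted p under 0.05), 2 without Ttran replicate 1 and 3 without Ttran replicate 2. Weak peaks gave the largest folds: Ptpn22 103893076 had -2.18 ± 0.59 in aged Ttran against Tprog, lost without aged OTC Tprog replicate 1 (adjusted p = 0.053) or Ttran replicate 2 (0.28). Rasa2 96618439 had -1.15 ± 0.31 in young Ttran against Tprog, lost without young OTC Tprog replicate 2 (adjusted p = 0.082).

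Ttad cells, negative for both markers, were sorted from aged hosts. At Rgs1 they lay between the other sorts: the peak at chr1:144306545-144308849 had 799.8 and 795 in Ttad, against 1142 and 1031 in Tterm and 637 and 609.5 in Tprog. Both differences were called (-0.44 ± 0.10, adjusted p = 9.7e-04, against Tterm, and 0.35 ± 0.10, adjusted p = 0.013, against Tprog). Ptpn2 was more open at its strongest peak, chr18:67723626-67725602, with 1358 and 1392 in Ttad and 1127 and 1058 in Tterm (0.33 ± 0.08, adjusted p = 0.0052), lost without aged OTC Ttad replicate 2 (adjusted p = 0.054) or Tterm replicate 2 (0.1). The Rasa2 start peak was lower in Ttad than in Tterm, -0.36 ± 0.09 (adjusted p = 0.0064). The Cblb progenitor peak at 52146664 was lower in Ttad than in Tprog (-0.66 ± 0.15, adjusted p = 0.002), a call lost without aged OTC Ttad replicate 1 (adjusted p = 0.082). Dgka, Dgkz, Ptpn6 and Cbl had 0 calls against Tterm or Tprog by limma or edgeR, with at most 1 peak a gene at an unadjusted p under 0.05 in either comparison. Rgs1 144306545 lost its Ttad-Tterm call without aged OTC Tterm replicate 1 (adjusted p = 0.063). Rgs1 144306545 lost its Ttad-Tprog call with quantile normalization (adjusted p = 0.091) and without aged OTC Tprog replicate 1 (adjusted p = 0.058), Tprog replicate 2 (0.13), Ttad replicate 1 (0.087) or Ttad replicate 2 (0.06). Rasa2 96630466 lost its Ttad-Tterm call without aged OTC Ttad replicate 1 (adjusted p = 0.17) or Tterm replicate 2 (0.11).

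In number, 1 peak rose and 6 fell in Ttad against Tterm (5.3%, background 7.28% of all peaks, 3.02% higher and 4.26% lower). Against Tprog 5 rose and 4 fell (6.82%, background 6.55% of all peaks, 3.82% higher and 2.73% lower), or 3 and 5 with quantile normalization. Against Ttran 2 rose and 9 fell (8.33%, background 7.74% of all peaks, 3.02% higher and 4.72% lower). None of these shares departs much from the background. Each count was lower without any 1 of the compared libraries, where a group of 2 kept 1. Against Tterm it went from 7 to 3 without either aged OTC Tterm library. Against Tprog it went from 9 to 2 without aged OTC Tprog replicate 1 and to 3 without Ttad replicate 1. Against Ttran it went from 11 to 2 and 5 without Ttad replicates 1 and 2, and to 4 and 6 without Ttran replicates 1 and 2. A weak Cblb peak at chr16:52160705-52161278 (mean signal 21.6) had 3.35 and 8.62 in Ttad and 40.3 and 23.8 in Tterm (-2.31 ± 0.58), a call lost without aged OTC Ttad replicate 1 (adjusted p = 0.16) or Tterm replicate 1 (0.12).

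Host age was compared in OTC cells as the mean over Tprog, Ttran and Tterm. In aged hosts, Tnfaip3 and Rgs1 were more open and Ptpn2 and Ptpn22 less open. Tnfaip3 rose at 15 peaks and fell at 4 of 31, and Rgs1 rose at 9 and fell at none of 21. Ptpn2 fell at 7 of 9 peaks, with a median log2 difference of -0.71, and Ptpn22 at 5 of 8, and neither had a called rise. Cblb had 3 higher and 6 lower, Cbl 2 higher, Dgkz 2 lower and Dgka 1 lower, and Rasa2 and Ptpn6 had 0 calls by limma or edgeR (2 of 10 and 0 of 3 peaks at an unadjusted p under 0.05). Over the 132 peaks 29 rose and 25 fell (40.9%, background 36.5% of all peaks, 17.3% higher and 19.1% lower), with a median of 0.06, so the set as a whole was near the background while its genes went separate ways. With quantile normalization Dgka had 0 calls. The directions of the other genes were the same with quantile normalization, and those of all of them with edgeR. No test of 1 gene against another was made.

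Age cannot be told apart from the handling of the libraries, since the sample-sheet numbers in the file's column names run separately for aged and young libraries. Among the markers of other cells, the myeloid list was apart between the ages. The summed signal of the myeloid list, of which 2 of 5 genes (Itgam and Cd14) had peaks, was 1145 to 1296 in aged and 1479 to 1719.8 in young OTC libraries of these sorts, which did not overlap. For the melanoma list (3 of 6 genes with peaks: Mlana, Pmel and Sox10) the ranges were 857 to 1015 and 967 to 1263. The B cell list (1 of 5, Blk) had 405 to 607 and 323 to 568, the NK list (2 of 2) 2211 to 2744 and 2247 to 2772, and the CD4 list (1 of 1) 240.4 to 539 and 410.4 to 572. The T cell list (6 of 6) was 14657 to 14987 in aged and 14918 to 16806 in young libraries. Sums also differed between sorts. In aged OTC cells, Tprog was above Tterm for the NK (2651 to 2744 against 2211 to 2437) and melanoma lists (965 to 1015 against 857 to 887). For the CD4 list it was below Tterm (240.4 to 260.4 against 412 to 499), as for the B cell and myeloid lists (1145 to 1172 against 1261 to 1272). In young OTC cells the myeloid sum was higher in Tprog (1691 to 1720 against 1499 to 1548). The part of such cells in the age and sort differences was not tested.

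At Ptpn2, the falls in aged hosts differed in size between peaks. The peak at chr18:67687741-67689057 had 182 and 247 in aged against 238 and 228 in young Tprog, 185 and 201 against 312, 303 and 290.3 in Ttran, and 141 and 164 against 284, 292 and 287 in Tterm. The ages overlapped in Tprog and were apart in Ttran and Tterm. Its mean difference was -0.56 ± 0.10 (adjusted p = 8.3e-07). At chr18:67732528-67733762, 7.9 kb from the gene body, aged libraries ran from 14.3 to 43.6 and young ones from 53.7 to 89.7 (-1.32 ± 0.21, adjusted p = 1.3e-07). Both falls were called again in Zfp219 cells (-0.42 and -0.98) and Dusp5 cells (-0.28 and -0.88). The strongest Ptpn2 peak, chr18:67723626-67725602, had -0.05 ± 0.05 (adjusted p = 0.46). Ptpn22, the phosphatase of Lck and Zap70, fell over its start, chr3:103859387-103860764, from 1016 to 1159 in young to 854 to 995 in aged libraries (-0.20 ± 0.05, adjusted p = 7.7e-04). It also fell at chr3:103857192-103858198, before the start, by 0.30 on the log2 scale, at chr3:103885894-103888145 by 0.65 and at 103872548 by 0.43. Ptpn6 peaks had -0.05 ± 0.05, 0.09 ± 0.05 and 0.02 ± 0.14, none called.

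Of the ligases, Cbl gained its largest folds of the age comparison at a pair of weak neighbouring peaks, chr9:44179638-44179892 and chr9:44180644-44180966, 54.3 and 53.2 kb into the gene. At the first, aged OTC libraries had 46.4 and 39.9 in Tprog, 55.7 and 39.9 in Ttran and 52.3 and 76.1 in Tterm, and young ones 17.9 and 7.70, 12.4, 12.5 and 3.17 and 13.3, 24.4 and 15.7. All aged libraries exceeded all young ones in these sorts. The differences were 2.00 ± 0.34 (adjusted p = 7.8e-07) and 1.95 ± 0.41 (adjusted p = 6.1e-05), on a scale that understates folds of weak peaks. At the first peak the difference between ages was smaller in Dusp5 than in OTC cells (interaction -1.53 ± 0.48, limma adjusted p = 0.048). The losses of that interaction call are given below. The Cbl start peak at chr9:44232954-44234947 had 0.05 ± 0.05. Cblb fell at the progenitor peaks: 52129211 by 0.59 and 52146664 by 0.48 on the log2 scale (adjusted p = 2.0e-07 and 7.6e-07), and at chr16:52125462-52126957 by 0.29. At 52146664 the fall was called in Tprog (-0.67 ± 0.15) and Ttran (-0.42 ± 0.14). The Cblb start had 0.03 ± 0.04. Dgkz fell at its starts by 0.14 and 0.13, and Dgka by 0.17 at the start peak 128744329. Dgkz 91947501 lost its age call without aged OTC Tprog replicate 2 (adjusted p = 0.13), Ttran replicate 1 (0.17), young OTC Tprog replicate 1 (0.052) or Ttran replicate 2 (0.055). Dgkz 91961877 lost its age call without aged OTC Tprog replicate 1 (adjusted p = 0.075), Tterm replicate 1 (0.072) or Ttran replicate 1 (0.094). Dgka 128744329 lost its age call with quantile normalization (adjusted p = 0.0501) and without any 1 of 7 of the compared libraries (adjusted p 0.058 to 0.11).

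Tnfaip3's strongest peak, at chr10:19061599-19063219 and 46.2 kb before the gene, had 2227 and 2378 in aged Tprog, 2852 and 2783 in Ttran and 2455 and 2614 in Tterm. Young libraries had 2312 and 2299.9, 2368, 2345 and 2239 and 1892, 1949 and 1814. The ages overlapped in Tprog and were apart in Ttran and Tterm. The mean difference was 0.24 ± 0.04 (adjusted p = 9.8e-08), with 0.28 in Ttran and 0.43 in Tterm. The peak at the end of the gene, chr10:18999081-19000970, had 785 and 806, 724 and 721 and 556 and 486 in aged Tprog, Ttran and Tterm, and 517 and 601, 520.1, 521 and 509 and 396, 349 and 374 in the young ones. Aged exceeded young in each sort (0.49 ± 0.07, adjusted p = 1.7e-09). The outer start rose by 0.12 (adjusted p = 0.034) and the inner start had 0.07 ± 0.07. Tnfaip3 also had falls, such as -1.15 ± 0.32 at the weak chr10:18941433-18941933. Tnfaip3 19014321 lost its age call with quantile normalization (adjusted p = 0.14) and without any 1 of 7 of the compared libraries (adjusted p 0.06 to 0.23).

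Rgs1 rose most at chr1:144250509-144250837, 1.4 kb from the gene. Its aged libraries had 102 and 78.1 in Tprog, 214 and 149.9 in Ttran and 181 and 199.8 in Tterm, and the young ones 26.5 and 25.7, 89.2, 97.7 and 86.6 and 93.5, 89.6 and 75.4. Within each sort all aged libraries were above the young ones (1.28 ± 0.16, adjusted p = 4.0e-11). These values are of OTC cells. The difference between ages was smaller with the other guides, with interactions of -0.80 ± 0.22 for Zfp219 and -1.05 ± 0.22 for Dusp5. The peak is not among those, listed below, that rose with age in all 3 guide sets. At chr1:144239027-144239744 the range was 366 to 528 in aged and 178 to 322 in young libraries (0.79 ± 0.09, adjusted p = 9.5e-12). The Rgs1 peak over the gene, 144248218, had 0.13 ± 0.06, and the strongest, 144306545, 0.01 ± 0.05. Thus the strongest Rgs1 peak, which separated the sorts, did not pass the test between ages. With all 3 guides as separate sets, 8 of the 132 peaks rose with age in each (background 5.31%): Tnfaip3 18999081, 19061599, 19077889 and 19104269, Rgs1 144239027, 144243156, 144272898 and 144316232. Another 8 fell in each (background 6.77%): Cblb 52125462, 52129211 and 52199312, Ptpn2 67687741 and 67732528, Ptpn22 103857192 and 103859387, and Tnfaip3 18931057. In Zfp219 cells 16 peaks rose and 19 fell with age (26.5%, background 30.3% of all peaks, 14.7% higher and 15.6% lower), and in Dusp5 cells 16 rose and 28 fell (33.3%, background 31.8% of all peaks, 14.5% higher and 17.3% lower). Of the 132 peaks, 58 were called in none of these 3 sets.

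**Figure D3:**
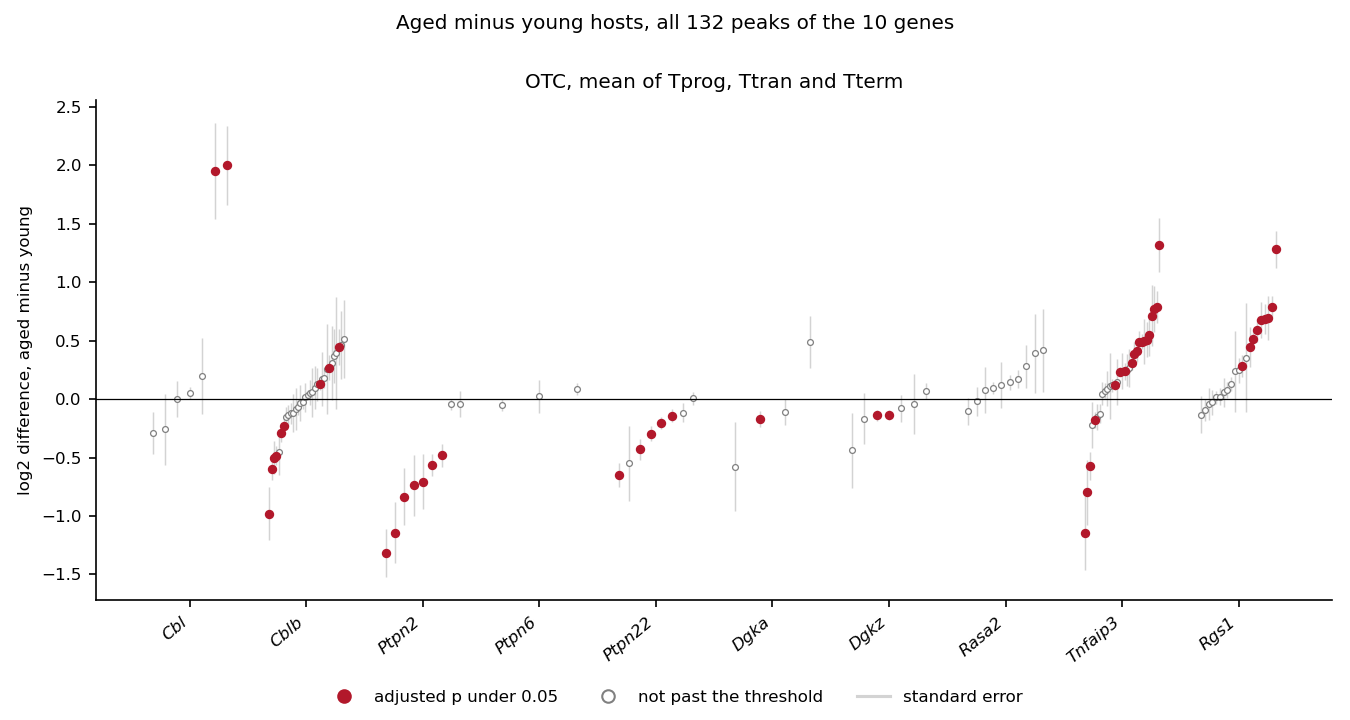
Difference in log2(normalized signal + 1) between aged and young OTC cells, mean of 3 sorts (vertical axis), for each of the 132 peaks grouped by gene (horizontal axis). Red points have an adjusted p under 0.05, grey open points do not, and bars are SE; the red Ptpn2 points are all below 0 and the red Rgs1 points all above 0, and the pair of Cbl points near 2 are weak peaks.

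The guides were compared with OTC within each age as the mean over sorts, 4 in aged and 3 in young hosts. Both guides were set against the same OTC libraries, so their values are given side by side and not as independent evidence. In aged hosts the Zfp219 guide went with lower signal at 12 and higher signal at 3 Tnfaip3 peaks, lower signal at 4 Rgs1 peaks and higher signal at 4 Ptpn2 peaks. The Dusp5 guide went with 5 lower Cblb peaks (3 with quantile normalization) and 3 higher Ptpn2 peaks (2 by edgeR). For Zfp219, 11 of the 132 peaks rose and 26 fell in aged hosts (28%, background 25.8% of all peaks, 12.1% higher and 13.7% lower). In young hosts 4 rose and 9 fell (9.85%, background 7.07% of all peaks, 1.92% higher and 5.15% lower), or 4 and 4 with quantile normalization. For Dusp5, 4 rose and 12 fell in aged (12.1%, background 12.2% of all peaks, 4.35% higher and 7.87% lower) and 1 rose and 6 fell in young hosts (5.3%, background 3.82% of all peaks, 1.8% higher and 2.02% lower). Taken over both directions, these shares are close to those of all peaks. By direction, falls made up 19.7% of the set with Zfp219 in aged hosts, above the 13.7% of all peaks, and 12 of these 26 falls were at Tnfaip3. With Dusp5 in young hosts falls made up 4.55%, above 2.02%. Rises were below the background in both, at 8.33% and 0.758%. With quantile normalization the rises and falls were 14 and 22 for aged Zfp219 and 1 and 4 for young Dusp5. In young Zfp219 and aged Dusp5 cells, falls made up 6.82% and 9.09% of the set, beside 5.15% and 7.87% of all peaks. The young Dusp5 count went from 7 to 4 without young Dusp5 Tprog replicate 1, Tprog replicate 2 or Ttran replicate 3.

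The Zfp219 difference with the smallest p of the set was at Rasa2, chr9:96534679-96535696, 3.6 kb past the gene. In aged hosts OTC libraries had 132 and 137 in Tprog, 284 and 217 in Ttran, 165 and 141 in Tterm and 141 and 132 in Ttad. The Zfp219 libraries had 83.9 and 127, 68.4 and 81.6, 101 and 92.8 and 45.8 and 50.3. Dusp5 libraries had 109 and 126, 234 and 284, 282 and 228 and 170.0 and 135. Zfp219 and OTC libraries were furthest apart in Ttran and Ttad. The mean difference was -1.06 ± 0.11 (adjusted p = 1.4e-13) for Zfp219, with -1.72 in Ttran and -1.49 in Ttad, and 0.18 ± 0.11 for Dusp5. In young hosts it was -0.50 ± 0.11 (adjusted p = 0.0012) for Zfp219, with -1.16 in Ttran, and -0.06 ± 0.11 for Dusp5. The Rasa2 start, 96630466, had 0.12 ± 0.05 in aged and -0.18 ± 0.05 in young Zfp219 cells, opposite in sign. Rasa2 96630466 lost its aged Zfp219 call without any 1 of 9 of the compared libraries (adjusted p 0.05 to 0.11). Rasa2 96630466 lost its young Zfp219 call with quantile normalization (adjusted p = 0.084).

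At Tnfaip3, chr10:19061599-19063219 was the single peak of the 132 called in all 4 guide comparisons. It fell by 0.24 (Zfp219, aged), 0.16 (Zfp219, young), 0.26 (Dusp5, aged) and 0.15 (Dusp5, young) on the log2 scale. In aged Ttran, OTC libraries had 2852 and 2783, Zfp219 2068 and 2228 and Dusp5 2232 and 2157. In young Ttran the values were 2368, 2345 and 2239, 1823, 1968 and 1744 and 2248, 2073 and 2123 in the same order. The OTC libraries were the highest in aged Ttran. At the end of the gene the differences were of larger size except with Dusp5 in aged hosts, an order that was not tested. The peak at chr10:18999081-19000970 had -0.42 ± 0.06 with Zfp219 in aged and -0.47 ± 0.06 in young hosts, and with Dusp5 -0.16 ± 0.06 (adjusted p = 0.074) and -0.48 ± 0.06. The peak at chr10:19001087-19002569 had -0.59 ± 0.09 and -0.35 ± 0.09 with Zfp219, and -0.17 ± 0.09 (adjusted p = 0.22) and -0.65 ± 0.09 with Dusp5. In young OTC Ttran this last peak had 279, 261 and 259.7, in Dusp5 Ttran 164, 159 and 149 and in Zfp219 Ttran 227, 173 and 187. The outer start had -0.00 ± 0.04 and -0.08 ± 0.04 with Zfp219 and -0.11 ± 0.04 and -0.08 ± 0.04 with Dusp5, and the inner start -0.16 ± 0.06, -0.09 ± 0.06, -0.02 ± 0.06 and -0.03 ± 0.06. Tnfaip3 19061599 lost its young Zfp219 call with quantile normalization (adjusted p = 0.18). Tnfaip3 19061599 lost its young Dusp5 call with quantile normalization (adjusted p = 0.23) and without young Dusp5 Tprog replicate 2 (adjusted p = 0.12).

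Rises with a guide were fewer. Past Tnfaip3, chr10:18946710-18947497 rose with Zfp219 in aged hosts (0.26 ± 0.06, adjusted p = 6.9e-04), and the weak chr10:18970267-18971461 fell with Zfp219 in aged hosts (-0.90 ± 0.17, adjusted p = 2.5e-05) and rose with Dusp5 in young hosts (0.63 ± 0.18, adjusted p = 0.024), the latter lost without young Dusp5 Tprog replicate 1, Tterm replicate 2, Tterm replicate 3 or Ttran replicate 3, or young OTC Tprog replicate 2 (adjusted p 0.055 to 0.11). In young hosts the call of a rise with Zfp219 at this gene was chr10:19043138-19044372, 0.46 ± 0.09. Rgs1 fell with Zfp219 in aged hosts at chr1:144239027-144239744, from 366 to 528 in OTC to 222 to 342 in Zfp219 libraries (-0.62 ± 0.08, adjusted p = 6.3e-09, young -0.08 ± 0.09). At chr1:144250509-144250837 it fell with both guides in aged hosts (-0.60 ± 0.14 with Zfp219 and -0.70 ± 0.14 with Dusp5), and the young values were 0.20 ± 0.15 and 0.35 ± 0.15. In young hosts Rgs1 had 2 called rises with Zfp219, 0.23 ± 0.07 at chr1:144300609-144301948 and 0.29 ± 0.09 at chr1:144319216-144320493, and no called fall. Rgs1 144300609 lost its young Zfp219 call without young OTC Tprog replicate 2 (adjusted p = 0.13), young Zfp219 Tprog replicate 2 (0.052) or Ttran replicate 2 (0.058). Rgs1 144319216 lost its young Zfp219 call without any 1 of 9 of the compared libraries (adjusted p 0.053 to 0.13).

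The phosphatase Ptpn2 rose with both guides in aged hosts at chr18:67687741-67689057, 0.27 ± 0.09 (adjusted p = 0.017) with Zfp219 and 0.29 ± 0.09 (adjusted p = 0.017) with Dusp5. The Dusp5 call was lost without aged Dusp5 Tprog replicate 1 (adjusted p = 0.12), Dusp5 Ttad replicate 2 (0.1), OTC Tprog replicate 1 (0.087) or OTC Tterm replicate 1 (0.053). At chr18:67732528-67733762 the Zfp219 difference was 0.64 ± 0.19 (adjusted p = 0.0075), lost without aged OTC Ttran replicate 2 (adjusted p = 0.076) or Zfp219 Tprog replicate 1 (0.053). The strongest Ptpn2 peak rose by 0.15 with Zfp219 (adjusted p = 0.0042). At chr18:67706072-67706589 aged Dusp5 libraries gave 0.94 ± 0.21 (adjusted p = 9.9e-04). In young hosts chr18:67693364-67694313 rose with Zfp219, 0.42 ± 0.10 (adjusted p = 0.0038). Ptpn22 rose before its start at 103857192 with Zfp219 in aged hosts (0.23 ± 0.06, adjusted p = 0.0017) and fell at 103907317 (-0.19 ± 0.05, adjusted p = 0.0027). Ptpn6 had 0 called peaks by limma or edgeR in these 4 comparisons (at most 2 of 3 at an unadjusted p under 0.05, in aged Dusp5), with differences of -0.03 ± 0.05, -0.06 ± 0.05 and -0.21 ± 0.13 for aged Zfp219. Ptpn2 67687741 lost its aged Zfp219 call without aged OTC Tprog replicate 1 (adjusted p = 0.085) or Tterm replicate 1 (0.051). Ptpn2 67687741 lost its aged Dusp5 call with the compared groups fitted alone (adjusted p = 0.071).

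For the ligases, the pair of weak Cbl peaks fell with both guides in aged hosts, -1.25 ± 0.31 and -1.17 ± 0.38 with Zfp219 and -0.91 ± 0.31 and -1.42 ± 0.38 with Dusp5. With Dusp5 the call at 44179638 was lost when any 1 of 11 of the 16 aged libraries was left out (5 Dusp5: Tprog 1 and 2, Ttad 2, Tterm 1 and Ttran 1, and 6 OTC: Tprog 1 and 2, Ttad 1 and 2, Tterm 2 and Ttran 1, by replicate, adjusted p 0.052 to 0.095), and at 44180644 without aged Dusp5 Tterm replicate 2 (adjusted p = 0.13). With Zfp219 the call at 44180644 was lost without aged Zfp219 Tprog replicate 2 (adjusted p = 0.089). In young hosts the first peak had -0.11 ± 0.32 and 0.62 ± 0.32. The Cblb progenitor peaks rose with Zfp219 in aged hosts, 52129211 by 0.30 (adjusted p = 0.0069) and 52146664 by 0.24 (adjusted p = 0.01), where Dusp5 gave 0.18 ± 0.09 and 0.16 ± 0.07. In young Dusp5 cells 1 Cblb peak fell, chr16:52179943-52180544 (-0.61 ± 0.18), lost without any 1 of 13 of the 16 young libraries compared (adjusted p 0.05 to 0.16). Dgkz fell at 1 of its start peaks, 91947501, with Zfp219 in young hosts (-0.16 ± 0.05, adjusted p = 0.013). Dgka fell at the start peak 128744329 with Dusp5 in young hosts (-0.22 ± 0.06, adjusted p = 0.028). Cblb 52146664 lost its aged Zfp219 call without aged OTC Ttran replicate 1 (adjusted p = 0.057). Dgkz 91947501 lost its young Zfp219 call with quantile normalization (adjusted p = 0.22) and without young OTC Tprog replicate 1 (adjusted p = 0.053). Dgka 128744329 lost its young Dusp5 call with quantile normalization (adjusted p = 0.06) and without any 1 of 6 of the compared libraries (adjusted p 0.063 to 0.098).

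**Figure D4:**
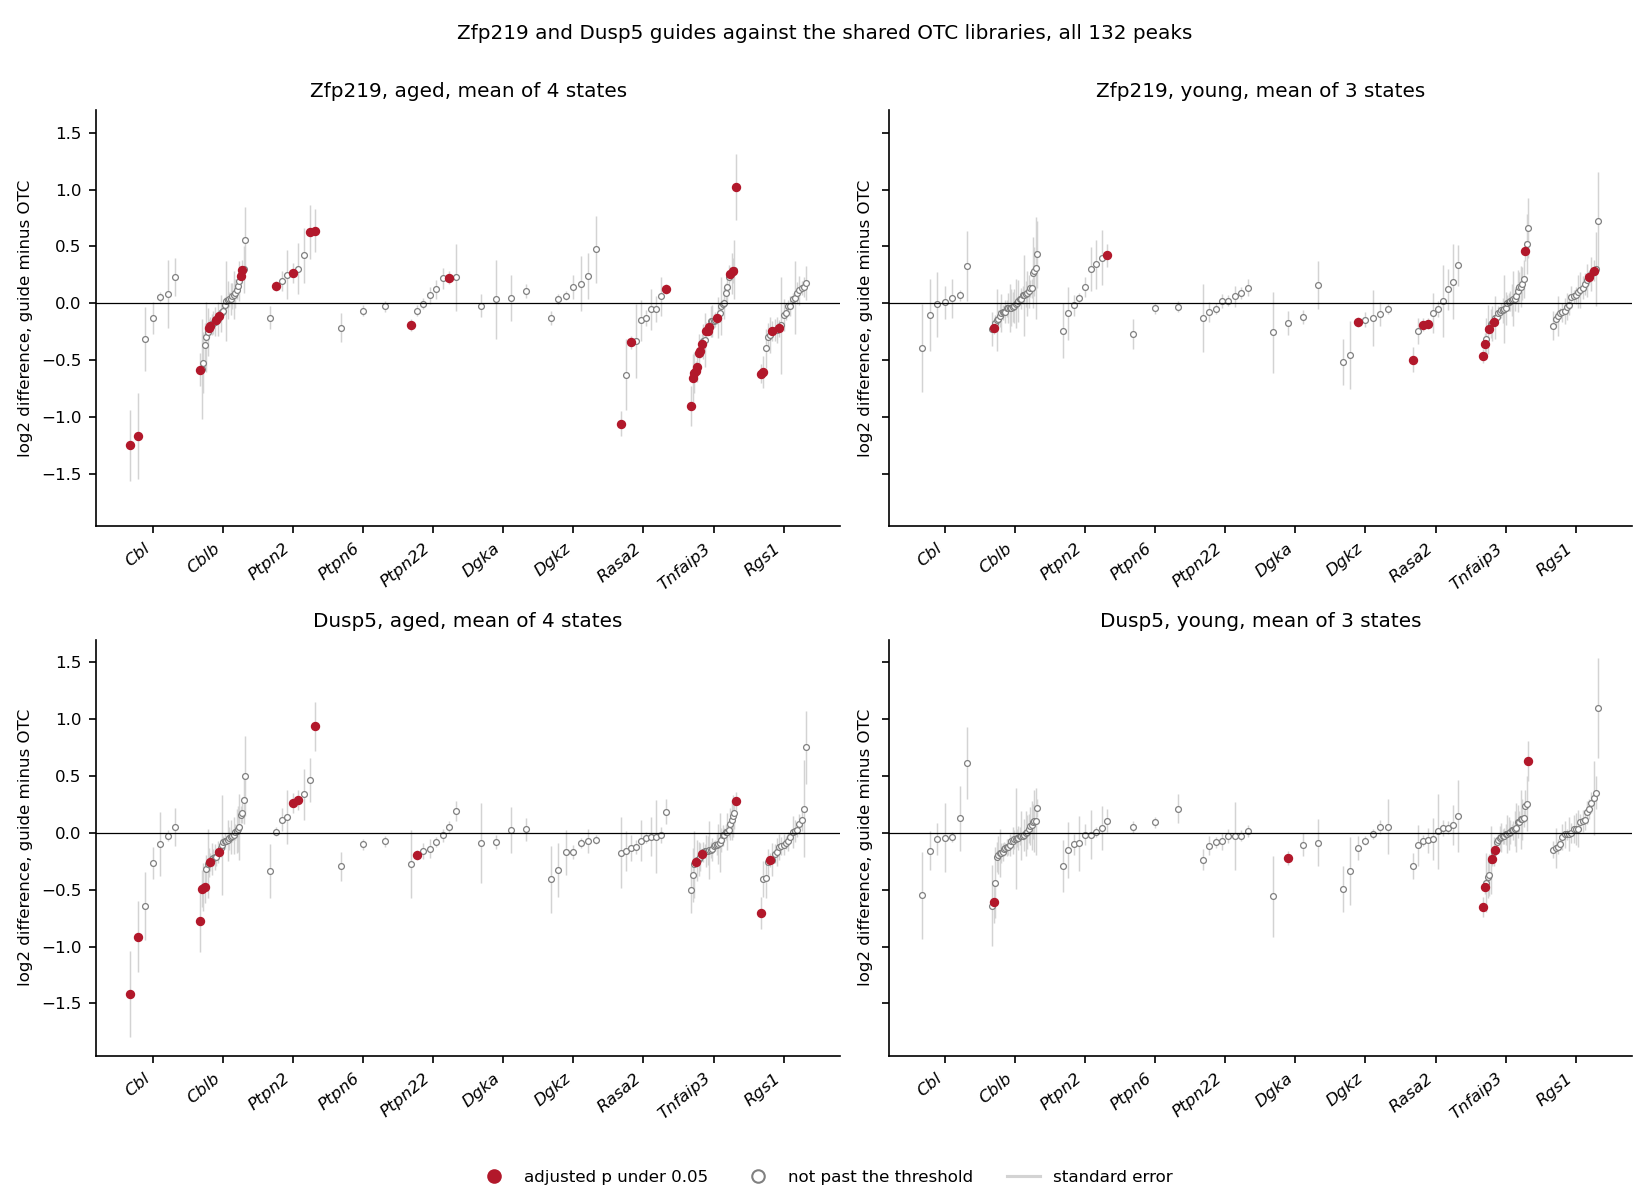
Difference in log2(normalized signal + 1) between Zfp219 or Dusp5 and OTC libraries of the same host age (vertical axes, 1 panel per guide and age) for the 132 peaks grouped by gene (horizontal axis). Red points have an adjusted p under 0.05, grey open points do not, and bars are SE; more points are red in aged than in young panels, where 37 and 16 peaks were called against 13 and 7, with 16 aged and 16 young libraries behind each.

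In Ttad cells, 4 peaks rose and 5 fell with Zfp219 (6.82%, background 8.23% of all peaks, 3.66% higher and 4.56% lower), and 1 rose and 3 fell with Dusp5 (3.03%, background 2.88% of all peaks, 1.21% higher and 1.67% lower), again near the background. For Dusp5 the split was 1 and 0 with quantile normalization and 0 and 1 by edgeR. The Rasa2 peak 96534679 fell with Zfp219, from 141 and 132 in OTC to 45.8 and 50.3 (-1.49 ± 0.22, adjusted p = 5.9e-07). The Rasa2 start rose (0.40 ± 0.09, adjusted p = 0.0022). Tnfaip3 19061599 fell with both, -0.22 ± 0.07 and -0.27 ± 0.07. With Zfp219 the weak 18970267 gave -1.42 ± 0.35, lost without aged OTC Ttad replicate 1 (adjusted p = 0.053) or Zfp219 Ttad replicate 2 (0.082). The count for Zfp219 went from 9 to 2 without OTC Ttad replicate 1, to 4 without Zfp219 Ttad replicate 1 and to 3 without Zfp219 Ttad replicate 2. The count for Dusp5 went from 4 to 0 without OTC Ttad replicate 1 (limma, 11 peaks at an unadjusted p under 0.05) and to 2 without either Dusp5 library. At the weak Cblb peak 52160705 both guides gave rises, 2.49 ± 0.58 and 2.35 ± 0.58, over OTC values of 3.35 and 8.62; without OTC Ttad replicate 1 neither was called (adjusted p = 0.1 and 0.21), nor, for Dusp5, without Dusp5 Ttad replicate 2 (0.079). Rasa2 96630466 lost its Ttad Zfp219 call without aged OTC Ttad replicate 1 (adjusted p = 0.095) or aged Zfp219 Ttad replicate 2 (0.084). Tnfaip3 19061599 lost its Ttad Zfp219 call with quantile normalization (adjusted p = 0.33) and without aged OTC Ttad replicate 1 (adjusted p = 0.16), Ttad replicate 2 (0.063), aged Zfp219 Ttad replicate 1 (0.18) or Ttad replicate 2 (0.082). Tnfaip3 19061599 lost its Ttad Dusp5 call with quantile normalization (adjusted p = 0.53), with the compared groups fitted alone (adjusted p = 0.096) and without aged Dusp5 Ttad replicate 1 (adjusted p = 0.35) or aged OTC Ttad replicate 1 (0.12). Cblb 52160705 lost its Ttad Dusp5 call with the compared groups fitted alone (adjusted p = 0.18) and by edgeR (adjusted p = 0.058).

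Whether a guide acted differently in aged and young hosts was tested as an interaction over the 3 shared sorts. For Zfp219, 1 peak had a higher and 7 a lower effect in aged hosts (6.06%, background 9.11% of all peaks, 4.09% higher and 5.01% lower), or 0 and 5 with quantile normalization. For Dusp5 there were 3 and 4 (5.3%, background 4% of all peaks, 1.27% higher and 2.73% lower). Of the difference between Tprog and Tterm, 1 peak depended on age (0.758%, background 2.32% of all peaks, 0.512% higher and 1.81% lower), Tnfaip3 19061599 (-0.43 ± 0.09, adjusted p = 0.0016). At this peak aged Tprog had 2227 and 2378 against 2455 and 2614 in Tterm, and young Tprog 2312 and 2299.9 against 1892, 1949 and 1814. With quantile normalization this interaction was -0.21 with an adjusted p of 0.303, and 1 higher and 0 lower peaks were called, while edgeR called 1 and 2. Rgs1 144250509 had an interaction with both guides, -0.80 ± 0.22 (adjusted p = 0.01) and -1.05 ± 0.22 (adjusted p = 8.9e-04), and Rgs1 144239027 with Zfp219, -0.56 ± 0.13 (adjusted p = 0.0019). These interactions share the OTC libraries.

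A pair of further lists places these counts beside the rest of the pathway. One held 20 other inhibitory genes with 152 peaks and the other 24 genes on the activating side, from the receptor chains to the transcription factors, with 288 peaks. Between Tprog and Tterm in aged hosts, 10 rose and 26 fell (6.58% and 17.1%) among the other brakes and 36 rose and 28 fell (12.5% and 9.72%) on the activating side, beside 8.88% and 11.2% of all peaks. In young hosts 22 rose and 16 fell (14.5% and 10.5%) and then 50 rose and 19 fell (17.4% and 6.6%), beside 13.9% and 12.6% of all peaks. For host age, 28 rose and 40 fell (18.4% and 26.3%) of the inhibitory list and 39 rose and 81 fell (13.5% and 28.1%) of the activating one, beside 17.3% and 19.1% of all peaks. With Zfp219 in aged hosts, 29 rose and 28 fell (19.1% and 18.4%) and 34 rose and 45 fell (11.8% and 15.6%) respectively, beside 12.1% and 13.7% of all peaks. With this guide in young hosts 0 rose and 21 fell (0% and 13.8%) of the inhibitory and 2 rose and 26 fell (0.694% and 9.03%) of the activating list, beside 1.92% and 5.15% of all peaks, where the 10 genes described here had 4 rises and 9 falls. With Dusp5 in aged cells 5 rose and 23 fell (3.29% and 15.1%), then 7 rose and 32 fell (2.43% and 11.1%), beside 4.35% and 7.87% of all peaks. In young Dusp5 cells 1 rose and 4 fell (0.658% and 2.63%) and then 1 rose and 8 fell (0.347% and 2.78%), beside 1.8% and 2.02% of all peaks. The lists were not tested against each other.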

How the data were processed

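ATAC-seq was analysed in 48 libraries of OT-1 CD8 T cells. The deposited table holds a signal per peak that the authors normalized, per the values: in every library 100% of values were whole multiples, within 0.01, of the worth of 1 read, so they are read counts divided by a library factor. The submitters' processing notes name Bowtie2 2.2.9, Picard 2.8.0, SAMtools 1.3.1, MACS2 2.1.1, DESeq2 1.28.1 and mm10, without role or order. Treatment of duplicates, shifting of Tn5 insertion sites and pooling for peak calling were not given in the sources used here. Peaks were matched to RefSeq gene bodies of GRCm38.p6, and exon, intron and genome sequence positions were not used here.

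The main test was limma 3.58.1 (R 4.3.3) on log2(signal + 1), with all 48 libraries and a mean per group, a trended variance, and Benjamini-Hochberg adjustment over all 53868 peaks at a threshold of 0.05. Differences are on the log2(signal + 1) scale, which understates folds of weak peaks, and ± is the SE unless SD is given. Groups and replicate numbers came from the titles. The fit was also run on simulated reads with changes planted in the aged Zfp219 libraries alone. That simulation used the same noise factor for all peaks and held no differences by sort or age. It therefore does not show how the fit does on data like these, and no result here rests on it. Alternatives were a pseudocount of 8, the weakest 25% of peaks left out, quantile normalization, fitting the compared groups by themselves, a replicate block, edgeR 4.0.16 (quasi-likelihood, TMM) on whole reads, and each library left out. They were run on the 19 counts and on the 320 calls behind them, and a loss is given beside each such call that is printed. Named by rule were each gene's strongest peak, its peak with the largest F, the 2 largest rises and falls among called peaks of each comparison, and peaks over starts. Other peaks were chosen after their values were seen. The 10 genes and the lists were chosen with earlier results of these data known.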

Additional observations from a re-analysis of the deposited data

Results flagged for a closer look

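The guide effects below differed between aged and young hosts by the interaction test of limma over the 3 shared sorts (log2 difference of the effects, aged minus young). Each was adjusted over all peaks, and both guides share the OTC libraries. For Zfp219, the Ptpn2 peak at chr18:67693364-67694313 had -0.55 ± 0.16, adjusted p = 0.013, with effects of -0.13 in aged (4 sorts) and 0.42 in young hosts. Ptpn22 had -0.28 ± 0.08, adjusted p = 0.013 at chr3:103907317-103909129. At the Rasa2 start, chr9:96630466-96631935, the interaction was 0.21 ± 0.07, adjusted p = 0.042, and it was lost without any 1 of 16 libraries (adjusted p 0.052 to 0.1). Tnfaip3 had -0.88 ± 0.27, adjusted p = 0.024 at chr10:18970267-18971461, lost without aged OTC Tprog replicate 2 (adjusted p = 0.099), aged Zfp219 Tprog replicate 2 (0.051), young OTC Tprog replicate 2 (0.057) or young Zfp219 Tprog replicate 2 (0.11). It also had -0.42 ± 0.14, adjusted p = 0.038 at chr10:18995477-18996601 and -0.76 ± 0.20, adjusted p = 0.006 at chr10:19045974-19046658. Rgs1 had -0.56 ± 0.13, adjusted p = 0.0019 at chr1:144239027-144239744 and -0.80 ± 0.22, adjusted p = 0.01 at chr1:144250509-144250837. Ptpn2 67693364 lost its Zfp219 interaction call without aged OTC Tterm replicate 2 (adjusted p = 0.053). Ptpn22 103907317 lost its Zfp219 interaction call without aged Zfp219 Tterm replicate 2 (adjusted p = 0.081) or young Zfp219 Tprog replicate 1 (0.069). Rasa2 96630466 lost its Zfp219 interaction call with quantile normalization (adjusted p = 0.06). Tnfaip3 18970267 lost its Zfp219 interaction call with quantile normalization (adjusted p = 0.058). Tnfaip3 18995477 lost its Zfp219 interaction call with quantile normalization (adjusted p = 0.062) and without any 1 of 15 of the compared libraries (adjusted p 0.052 to 0.18).

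For Dusp5, the weak Cbl peak at chr9:44179638-44179892 had -1.53 ± 0.48, adjusted p = 0.048, lost without any 1 of 20 libraries (adjusted p 0.053 to 0.15). Cblb had -0.47 ± 0.12, adjusted p = 0.0092 at chr16:52038205-52039046. Ptpn2 had 0.47 ± 0.14, adjusted p = 0.033 at chr18:67699073-67700251, lost without any 1 of 10 libraries (adjusted p 0.05 to 0.11), and Ptpn22 0.49 ± 0.14, adjusted p = 0.028 at chr3:103885894-103888145, lost without any 1 of 8 (adjusted p 0.053 to 0.084). Tnfaip3 had 0.44 ± 0.13, adjusted p = 0.043 at chr10:19001087-19002569. Rgs1 had -1.05 ± 0.22, adjusted p = 8.9e-04 at chr1:144250509-144250837 and -0.47 ± 0.14, adjusted p = 0.036 at chr1:144263862-144264974. Tnfaip3 19001087 lost its Dusp5 interaction call without any 1 of 19 of the compared libraries (adjusted p 0.05 to 0.13). Rgs1 144263862 lost its Dusp5 interaction call with quantile normalization (adjusted p = 0.061) and without any 1 of 13 of the compared libraries (adjusted p 0.051 to 0.096).

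The difference between Tprog and Tterm in OTC cells depended on host age at Tnfaip3 chr10:19061599-19063219, with -0.43 ± 0.09, adjusted p = 0.0016 (aged minus young). The 2 sorts differed by -0.14 in aged and 0.29 in young hosts. With quantile normalization the interaction was -0.21 and was not called (adjusted p = 0.3).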

How the results depend on the processing

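Of the 320 calls of these peaks in the 19 comparisons, 0 changed sign in any alternative and 137 were kept in all of them. In all, 67 were lost in an alternative other than a left-out library (43 with quantile normalization, 13 by edgeR, 5 with the replicate block), and 176 without at least 1 library. Comparisons of the sorts in Zfp219 and Dusp5 cells, of single sorts and of age with these guides were not repeated. Of the 19 counts, 13 stayed within 1.5 times in each alternative that kept all libraries, and 5 did so without each library in turn. The count in aged Ttran against Tterm (1) was 2 with a pseudocount of 8, without the weakest 25% of peaks and by edgeR. With quantile normalization it was 8 for young Zfp219 (13), 1 for Ttad Dusp5 (4) and 5 for the Zfp219 interaction (8). Fitting the compared groups gave 2 for Ttad against Ttran (11), 0 for Ttad Dusp5 (limma, 20 at an unadjusted p under 0.05, where edgeR with all groups called 1) and 7 for the age dependence of Tprog against Tterm (1), which was 3 without the weakest peaks, 3 by edgeR and 3 with the replicate block. The cause was not tested.

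With each library left out, the counts ran from 20 to 24 (aged Tprog against Tterm), 27 to 33 (young), 20 to 27 and 0 to 3 (aged Ttran against Tprog and Tterm), 14 to 21 and 7 to 10 (young), 3 to 6, 2 to 6 and 2 to 6 (Ttad against Tterm, Tprog and Ttran), and 43 to 54 (age). They ran from 28 to 37 and 10 to 14 for Zfp219 in aged and young hosts, 11 to 19 and 4 to 7 for Dusp5, 2 to 7 and 0 to 5 for the guides in Ttad, 5 to 11 and 2 to 7 for the Zfp219 and Dusp5 interactions, and 1 to 2 for the age dependence of Tprog against Tterm. The Zfp219 interaction count fell from 8 to 5 without young OTC Tprog replicate 2, and 12 libraries each moved the Dusp5 interaction count by over 1.5 times. Where a group kept 1 library, that library was assumed to vary like the others. Replicate numbers gave no sign of a pairing: correlations of deviations between same-numbered libraries of an age ran from -0.018 to 0.017, 0 of them over 0.1. These correlations cannot show whether sorts shared mice under other numbers. The replicate block moved no other count by over 1.5 times.

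Depth limits the weak peaks: 24 of the 132 peaks had under 10 reads in some library, and the largest folds lie among them. Comparisons of single sorts rest on 2 or 3 pools a group.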

Other observations

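Over the 21 group means, the peaks whose normalized signal was most like that of Cblb 52146664 (Pearson's r of log2 values, given as a description) lay at Fam118a (0.966), near Rad23b (0.964), at no gene on chromosome 10 (0.964), at 1700025G04Rik (0.959) and at Zfp536 (0.958). The Cblb peak was therefore 1 of several peaks with this pattern across sorts, and nothing is drawn about shared function.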
